A study of Bos taurus with 8 samples.

Results

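The AP-1 and EGR immediate early factors are transcription factors whose genes are switched on within a short time of a signal reaching the cell. Here they comprised 10 genes, FOS, FOSB, FOSL1, FOSL2, JUN, JUNB, JUND, ATF3, EGR1 and EGR2, chosen by symbol on a cattle microarray of 15008 probes, on which each had 1 probe. RNA came from Holstein bull cattle of 5 to 6 months. The trial asked whether an egg-yolk antibody against bacterial lipopolysaccharide (LPS), dosed into the rumen through a fistula on 14 consecutive days, alters the response to a subacute ruminal acidosis (SARA) challenge, which was 2 days of a high-grain diet. The animals compared had received 4 g of the yolk preparation per head and day or 0 g, each group holding 1 array from each of the animals numbered 19, 20, 23 and 24, all taken 2 days after the challenge. All 8 arrays thus came from fistulated, challenged animals, and none came from an unchallenged one. The trial was a Latin square, in which 1 animal receives the doses in turn, but the period of each dose is not in the labels. The 2 g group was not analysed here.

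AP-1 is a family of dimers built from basic leucine zipper proteins. FOS proteins dimerise with JUN proteins and not with themselves, JUN proteins can also pair with each other, and ATF3 pairs with JUN proteins or with itself. The MAP kinases, acting through serum response factor (SRF) and its ternary complex partners, switch on FOS and EGR1 without new protein synthesis, and the messengers are short-lived. EGR1 and EGR2 are zinc finger proteins that bind GC-rich sites and are held back by the corepressors NAB1 and NAB2. In mouse liver JUN supports hepatocyte proliferation, and in mouse macrophages ATF3 restrains the cytokine response to LPS.

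A level here is the log2 of a gene's signal minus the log2 of its array's 75th percentile, so a gene can be followed across arrays but not compared with another gene. Between 64.4% and 80.4% of the probes were well above background on an array, the scanner software's call that a spot is brighter than its surroundings. Of the 8 arrays, 2 were dim, 4 g from animal 19 and 0 g from animal 20, each with a 75th percentile of 126 intensity units, while the other 6 arrays had 218 to 311. The labels name liver, while the extraction protocol names rumen epithelium. Of 20 hepatocyte markers 19 were well above background on each array, with summed signals of 1401 to 1959 at 4 g and 1358 to 1984 at 0 g, in multiples of the 75th percentile. Of 17 rumen and squamous epithelium markers 6 to 7 were measured at 4 g and 7 to 10 at 0 g, with summed signals of 3.75 to 6.88 and 2.77 to 6.87. The 0 g array of animal 23 carried pancreatic acinar transcripts, with all 16 markers well above background and a summed signal of 2947, against 15.9 to 21.3 on the 4 g arrays and 11.0 to 25.7 on the other 0 g arrays.

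The numbers 23 and 24 went against the data in part. Leaving out 34 genes in which only the 2 dim arrays stood apart, 22 genes had 2 separate levels, with a gap of at least 2 log2 units. Of these, 1 parted the arrays of animal 19 and 1 those of animal 20, but 13 parted the arrays labelled 23 and 13 those labelled 24. Only 6 parted the 0 g arrays labelled 23 and 24 from each other, and 2 parted the 4 g arrays. Levels or differences of the tested members are therefore given animal by animal, and the mean over animals 19 and 20 alone stands beside the mean over all 4. Many genes of the lists are given by the mean over all 4 alone, to which this doubt applies.

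Probe sequences of 6 members are shown, as designed for the array on assembly UMD 3.1 and read 5′ to 3′. The EGR1, EGR2 and FOSB probes are given whole, as members that were faint or not detected, and 30 bases are given of the JUNB, FOSL1 and ATF3 probes. Capitals mark ATTTA, the core letters of the AU-rich elements for which short-lived messengers are known.
EGR1: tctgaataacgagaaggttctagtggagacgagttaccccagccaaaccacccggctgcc
EGR2: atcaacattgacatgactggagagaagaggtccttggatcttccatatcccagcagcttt
FOSB: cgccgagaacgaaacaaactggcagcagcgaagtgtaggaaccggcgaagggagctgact
JUNB: ggtttctaaaggATTTAttttaatttgtgt
FOSL1: agcgtgggcagctgctATTTAttttcctaa
ATF3: tctctggctactatctgtttaaattctgac
The EGR1 probe lies at chr7:51439997-51440056 on the plus strand, that of EGR2 at chr28:19014052-19014111 on the minus strand and that of FOSB at chr18:53504676-53504735 on the plus strand. The whole JUNB probe lies at chr7:13851155-13851214, that of FOSL1 at chr29:44673305-44673364 and that of ATF3 at chr16:72820131-72820190, all on the minus strand. EGR1, JUNB and JUND thus all lie on chromosome 7. ATTTA, a motif without overlap in these letters, stood in 2 of the 10 probes on the probe's own strand, against 6.78% of all probes, and in 4 of 10 on either strand, against 14.0%. The files give no exons or untranslated regions for these positions.

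Of the 10 genes, 5 were well above background on all 8 arrays, namely FOSL2, JUN, JUNB, JUND and ATF3. FOS was measured on 7 arrays, EGR1 on 6 and FOSL1 on 5, while FOSB and EGR2 were measured on 1. The filter of at least 4 arrays left 8 genes in the test, which is a statement about brightness and not about change. With limma's moderated test, blocked on the animal, 0 of 10985 probes (0%) passed at an adjusted p under 0.05, and 120 (1.09%) had an unadjusted p under 0.05. Of the 8 tested members 0 passed, and 0 had an unadjusted p under 0.05, either as higher at 4 g (0.346% of all probes) or as lower (0.746%). The groups parted without overlap in 0 of 8 members, against 0.610% of all probes. The 95% confidence interval lay within a 2-fold change in either direction for 3 of 8 members, FOS, JUN and ATF3, against 64.2% of all probes. These intervals rest on the pairing by animal number. Without the block those of FOS (−1.68 to 1.05) and ATF3 (−1.21 to 0.54) reached beyond 2-fold. That of JUN (−0.49 to 0.73) stayed within it, and those of JUNB, JUND and EGR1 then also lay within it. The estimates were above 0 for 4 members and below 0 for 4, with a median of −0.05, beside 55.0% above 0 and a median of 0.02 over all tested probes. Those of FOS, FOSL1 and EGR1 took in spots not well above background.

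**Figure D1:**
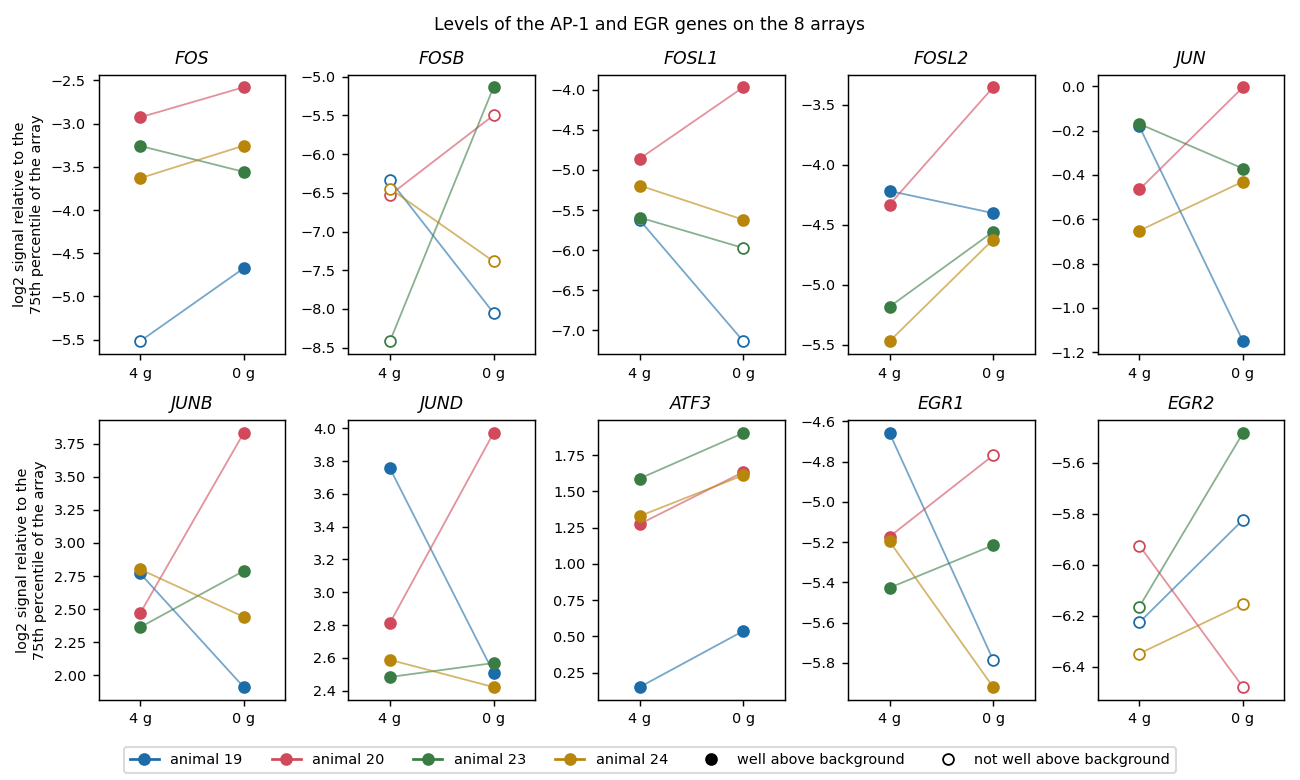
Level of each of the 10 genes (vertical axis, log2 of the signal over the array's 75th percentile, own scale per gene) on the 4 g and 0 g arrays, with a line joining the arrays of 1 animal number and open circles for spots not well above background. ATF3 is lower at 4 g on all 4 lines, while JUND is high at 4 g in animal 19 (3.76) and at 0 g in animal 20 (3.97).

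FOS, the founding member of its family and the usual readout of a recent stimulus, was faint. Its level was −5.52, −2.93, −3.26 and −3.63 at 4 g in animals 19, 20, 23 and 24, against −4.67, −2.58, −3.56 and −3.26 at 0 g. Both arrays of animal 19 were the lowest of their group and both arrays of animal 20 the highest, and the groups overlapped. The difference of 4 g minus 0 g was −0.32 (95% CI −0.96 to 0.32, limma adjusted p = 1.00), lower in 3 of 4 animals, and −0.60 in animals 19 and 20 alone. Without the 2 dim arrays, and with no block, the difference was 0.56. These arrays held the lowest FOS value, at 4 g, and the highest, at 0 g.

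FOSL2, a FOS relative that lacks the strong activation domain of FOS, had the estimate farthest from 0. It stood at −4.22, −4.33, −5.18 and −5.47 at 4 g, against −4.40, −3.35, −4.56 and −4.62 at 0 g. Animals 20, 23 and 24 were lower at 4 g, by −0.98, −0.62 and −0.85, and animal 19 was 0.18 higher. The mean difference was −0.57 (SE 0.28, 95% CI −1.23 to 0.10), with an unadjusted p of 0.0836 and an adjusted p of 1.00 in limma. It was −0.40 in animals 19 and 20 alone, −0.82 when animal 19 was left out and −0.11 with normexp background correction, which adds an offset that pulls faint signals together. The unscaled FOSL2 signals lay between 5.05 and 12.6 intensity units, close to the dimmest measured spots of the arrays at 4.37 to 4.90.

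FOSL1, the other FOS relative of this kind, straddled the background. Its level was −5.63, −4.86, −5.59 and −5.19 at 4 g, measured on 3 of 4 arrays, against −7.14, −3.97, −5.97 and −5.62 at 0 g, measured on 2 of 4. The highest value was measured at 0 g in animal 20. Animal 23 at 0 g and animal 19 at both doses were not well above background, so their values have no order, and the groups overlapped. Both arrays were measured only in animal 20, with a difference of −0.89, and in animal 24, with 0.43. Taking in the spots not well above background, the mean difference was 0.36 (95% CI −0.60 to 1.32, limma adjusted p = 1.00). On the same terms the mean was 0.31 in animals 19 and 20 alone. The mean difference was −0.03 without animal 19, −0.09 with normexp background correction and 1.03 without the 2 dim arrays and with no block.

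FOSB, the FOS paralogue best known from activated neurons, was well above background on the 0 g array of animal 23 alone. There its signal was 7.76 intensity units, against 0.91 to 2.57 at 4 g and 0.92 to 2.79 on the other 0 g arrays. That array is the one with 16 of 16 pancreatic acinar markers, and the part of the pancreatic transcripts in the FOSB signal was not tested. The gene was not tested between doses, and no fold is given, since its bound would be under 1.

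JUN, the partner that most FOS dimers need, had the narrowest range of the tested members. It stood at −0.18, −0.47, −0.17 and −0.65 at 4 g, against −1.15, −0.00, −0.37 and −0.43 at 0 g. The 0 g arrays of animals 19 and 20 held the lowest and the highest value. The difference was 0.12 (SE 0.30, 95% CI −0.61 to 0.85, limma adjusted p = 1.00), higher in 2 of 4 animals. It was 0.25 in animals 19 and 20 alone and −0.16 without animal 19.

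JUNB, a JUN relative that can restrain JUN, was bright on every array, with unscaled signals between 857 and 1885 intensity units. Its level was 2.77, 2.47, 2.36 and 2.80 at 4 g, against 1.91, 3.83, 2.79 and 2.44 at 0 g. The 4 g arrays lay close together (SD 0.22, n = 4), and the 0 g arrays enclosed them (SD 0.81, n = 4). The difference was −0.14 (SE 0.39, 95% CI −1.09 to 0.81, limma adjusted p = 1.00), made of 0.86 in animal 19, −1.36 in animal 20, −0.42 in animal 23 and 0.36 in animal 24. It was −0.25 in animals 19 and 20 alone, and 0.26 without animal 20.

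JUND, the JUN member that is present in resting cells and not a classical immediate early gene, had the steadiest unscaled signal of the 10 genes. Its unscaled signal was 1698, 1530, 1737 and 1347 intensity units at 4 g, against 1390, 1976, 1618 and 1661 at 0 g. The brightest array was thus 1.47 times the faintest, while the 75th percentile to which the level is scaled ran from 126 to 311. After scaling, animal 19 at 4 g (3.76) and animal 20 at 0 g (3.97) stood above the other 6 arrays (2.42 to 2.81). Both are the dim arrays. They were the 2 highest arrays in 3 of the 8 tested members, JUND, FOSL2 and EGR1, and in 24.3% of all tested probes, and the 2 lowest in 0 of 8, against 19.7% of all probes. EGR1 was not well above background on the 0 g array of animal 20, so its order there is not secure. The difference of JUND was 0.04 (SE 0.40, 95% CI −0.92 to 1.01, limma adjusted p = 1.00), with 1.25 in animal 19 and −1.16 in animal 20, against −0.08 in animal 23 and 0.17 in animal 24. Its mean over animals 19 and 20 alone was also 0.04, while it was −0.36 without animal 19 and 0.44 without animal 20.

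**Figure D2:**
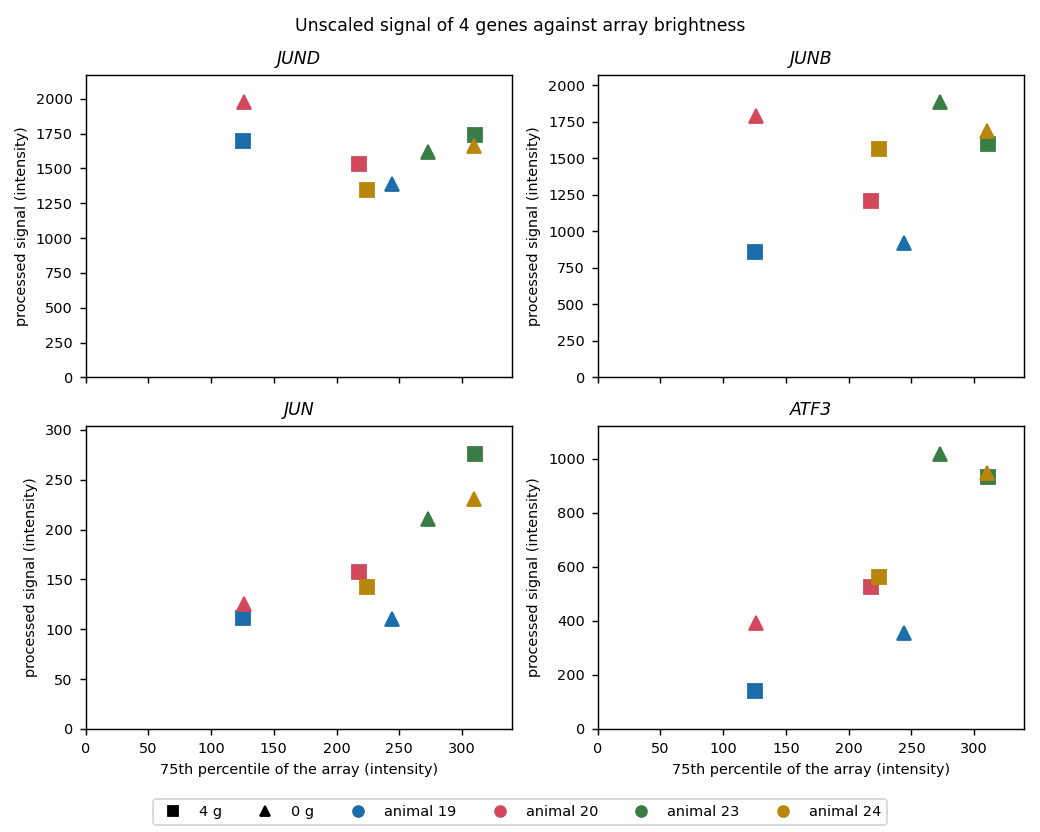
Processed signal of JUND, JUNB, JUN and ATF3 (vertical axes, intensity units before any scaling) against the 75th percentile of the same array (horizontal axis, intensity units), squares for 4 g and triangles for 0 g. JUND stays between 1347 and 1976 while the 75th percentile runs from 126 to 311, and ATF3 ranges from 139 to 1019.

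ATF3, a stress-induced factor that often acts as a repressor, differed in the same direction in each animal after scaling. Its level was 0.15, 1.27, 1.59 and 1.33 at 4 g in animals 19, 20, 23 and 24, against 0.54, 1.63, 1.90 and 1.61 at 0 g. Before scaling, the signals were 139, 527, 934 and 563 intensity units at 4 g, against 354, 391, 1019 and 947 at 0 g. The unscaled signal of animal 20, whose 0 g array was dim, was thus higher at 4 g. Within the animals the differences of the levels were −0.39, −0.36, −0.31 and −0.28, which lie 0.10 apart. The animals themselves were much farther apart, and the groups overlapped. The SD of these 4 differences was 0.047, beside a median of 0.586 over all tested probes, and 15 probes (0.137%) had an SD as small or smaller. Limma, which draws the variance of each probe towards that of the others, gave −0.33 (SE 0.21, 95% CI −0.84 to 0.17), with an unadjusted p of 0.161 and an adjusted p of 1.00. On the linear scale the estimate is 0.79-fold. With all 4 pairs taken as labelled, the interval leaves out a fall to below 0.56-fold and an increase above 1.13-fold. Without the block it was wider, at −1.21 to 0.54 in log2 units.

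Of the 8 tested members 1, ATF3, had the same sign in 4 of 4 animals, as did 5.23% of all tested probes, and 2.10% were lower at 4 g in 4 of 4 animals as ATF3 was. The ATF3 difference was −0.37 in animals 19 and 20 alone and −0.30 in animals 23 and 24 alone. It lay between −0.35 and −0.32 when 1 animal was left out, and was −0.30 with normexp background correction and −0.39 after quantile normalization. The normexp levels were 0.22, 1.21, 1.56 and 1.00 at 4 g, against 0.38, 1.37, 1.85 and 1.58 at 0 g. The 4 normexp differences were all below 0 but less close together, with the largest in animal 24. Where the block was dropped with the 2 dim arrays, which removes the 4 g array of animal 19 and leaves its low 0 g array in, the difference was 0.05, and without the 0 g array of animal 23, also with no block, it was −0.17. If the numbers 23 and 24 do not mark the same animals, 2 of the 4 pairs are not pairs, and without a block the SE was 0.39.

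EGR1, the zinc finger factor usually induced together with FOS, was at the edge of detection. It was measured on 4 of 4 arrays at 4 g and on 2 of 4 at 0 g, with unscaled signals of 4.98 to 7.22 intensity units at 4 g and 4.42 to 7.34 at 0 g. Its level was −4.66, −5.17, −5.43 and −5.20 at 4 g, against −5.79, −4.77, −5.22 and −5.92 at 0 g. The groups overlapped, with the highest value on the dim 4 g array of animal 19. The 4 g arrays alone met the filter of at least 4 arrays, and the 0 g arrays of animals 19 and 20 were not well above background. Both arrays were measured only in animal 23, with a difference of −0.21, and in animal 24, with 0.72. Taking in all spots, the mean difference was 0.31 (SE 0.33, 95% CI −0.48 to 1.102, limma adjusted p = 1.00). On the same terms it was 0.36 in animals 19 and 20 alone and −0.07 with normexp background correction.

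EGR2, the relative known from Schwann cells and T cells, was measured on the 0 g array of animal 23 alone, like FOSB. Its signal there was 6.10 intensity units, against 1.68 to 4.33 at 4 g and 1.41 to 4.35 on the other 0 g arrays. The part of the pancreatic transcripts of this array in the EGR2 signal was not tested, and neither was a difference between doses.

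**Figure D3:**
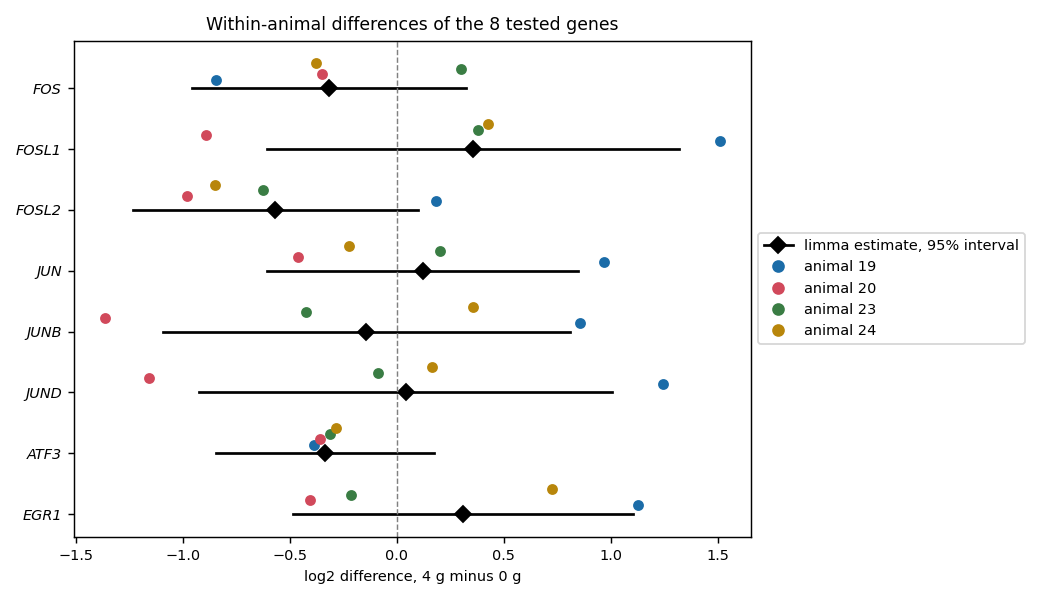
Log2 difference of 4 g minus 0 g (horizontal axis) for the 8 tested genes, coloured points for the 4 animals and black diamonds with bars for the limma estimate and its 95% interval. All 8 bars cross 0, the 4 ATF3 points lie between −0.39 and −0.28, and the points of animal 19 lie mostly to the right of 0 and those of animal 20 to its left.

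The members' differences had mostly opposite signs in animals 19 and 20. In animal 19 6 of the 8 tested members were higher at 4 g, with a median difference of 0.91, beside 54.9% of all tested probes and a median of 0.09. Of these 6, FOSL1 was not well above background on either array of animal 19, and EGR1 was not on its 0 g array. In animal 20 0 of 8 were higher at 4 g, with a median of −0.68, beside 46.9% and −0.05. In animals 23 and 24, 3 and 4 of 8 were higher, with medians of −0.15 and −0.03. The 0 g array of animal 20 held the highest level of 6 of the 8 members (FOS, FOSL1, FOSL2, JUN, JUNB and JUND), beside 17.4% of all tested probes, and the 0 g array of animal 19 held the lowest level of 3 of 8 (JUN, JUNB and FOSL1, the last not well above background there), beside 8.52%. In animals 19 and 20, 1 array of each pair was dim, and the part of array brightness in these opposite differences was not tested.

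Between animals, limma's F-test on the animal terms called 0 of 10985 probes (0%) at an adjusted p under 0.05, and 299 (2.72%) had an unadjusted p under 0.05. Among the members 2 of 8 did, FOS (unadjusted p = 0.00325, adjusted p = 0.985) and ATF3 (unadjusted p = 0.0117, adjusted p = 0.985). The mean FOS level of an animal was −5.10 in animal 19, −2.75 in animal 20, −3.41 in animal 23 and −3.44 in animal 24. The mean ATF3 level was 0.34 in animal 19, against 1.45, 1.74 and 1.47 in the others. Animal 19 was thus the lowest for both genes, with FOS not well above background on its 4 g array. With normexp background correction the FOS difference between animals had an unadjusted p of 0.455, and that of ATF3 0.0427.

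Likeness was measured as the root mean square (RMS) difference of levels over the 8 arrays, each gene centred on its own mean, among genes measured on all arrays. The nearest to JUND were PPP1R12A (0.063), ATP2C2 (0.088) and AKAP11 (0.11). JUNB was nearest to TOB2 (0.14), KLF13 (0.15) and PLSCR4 (0.19), and JUN to TFEC (0.13), TCF4 (0.14) and SAT2 (0.15). FOSL2 was nearest to RRAD (0.17), TMEM119 (0.17) and ADCY2 (0.21), and ATF3 to PRXL2A (0.14), PKIB (0.20) and SMS (0.22). Among the 5 members themselves the nearest pair was JUN and JUNB at 0.37 and the farthest JUND and ATF3 at 0.92. These distances are not set against those to outside genes, since far more probes than members were screened. The arrays share their animals and their brightness, and 5941 to 8600 probes were screened for each member, so these values are descriptions.

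Of 16 measured relatives and partners of AP-1, 11 had estimates above 0 and 5 below 0 (median 0.04), and 0 passed. The number above 0 depended on the animals, with 14 of 16 (median 0.13) when animal 23 was left out and 6 of 16 (median −0.01) when animal 24 was. NFIL3, a leucine zipper repressor of the clock output genes, averaged 0.28 ± 0.34 at 4 g and 0.90 ± 0.33 at 0 g (SD, n = 4 each). Its difference was −0.62 (SE 0.22, limma adjusted p = 1.00), lower in 4 of 4 animals, with −0.71 and −0.74 in animals 19 and 20. HLF differed by 0.41, CREM, a cAMP-responsive factor, by 0.32, and JDP2, a partner that represses AP-1, by 0.22. They were higher in 2, 3 and 2 of 4 animals. Of 7 EGR relatives and corepressors 3 were above 0 and 4 below 0 (median −0.17), and 0 passed. Among them were KLF6 (0.27, higher in 4 of 4 animals), KLF4 (−0.26), KLF10 (−0.37) and the corepressor NAB2 (−0.31). KLF4, KLF10 and NAB2 were each lower in 2 of 4 animals and higher in 2.

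Other immediate early genes lay mostly below 0, with 27 of 38 measured genes below and 11 above (median −0.12), and 0 passed. GADD45G, a growth arrest gene, differed by −0.57 (SE 0.27), IER5L by −0.49 and PHLDA1 by −0.48, each lower in 3 of 4 animals. SOCS3, a cytokine feedback inhibitor, was measured on 1 of the 4 g arrays and on all 4 of the 0 g arrays, so it passed the filter mainly through the 0 g arrays and its difference is not given. The counts and medians of the list still take it in. With the filter on all 8 arrays, which leaves SOCS3 out, 22 of 31 genes were below 0 and 9 above (median −0.11). IER5L was measured on 2 of 4 arrays at 4 g and on 3 of 4 at 0 g. Without animal 19 the list stood at 18 below and 20 above 0 (median 0.02), and without the 2 dim arrays, with no block, at 17 below and 21 above 0 (median 0.03). The inputs to these genes, SRF, its partners and the MAP kinases, stood at 15 above and 12 below 0 of 27 measured (median 0.04), and 0 passed. They included the ternary complex factor ELK4 (0.36), the kinases MAPKAPK2 (−0.32) and MAP3K5 (−0.24) and SRF itself (−0.26).

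ATF3 is also part of the stress response governed by ATF4. Of 15 measured genes of this response 12 were below 0 and 3 above (median −0.20), and 0 passed. The difference of FGF21, a liver hormone, was 0.32 in animal 19, 0.68 in animal 20, −3.62 in animal 23 and −5.16 in animal 24. The asparagine synthetase gene ASNS differed by −0.92, 1.87, −2.48 and −2.59 in animals 19, 20, 23 and 24. NUPR1 differed by −0.27, 0.16, −2.99 and 0.17 in these animals, so its mean of −0.73 rested on animal 23. TRIB3 differed by −0.49, 0.12, −0.50 and −0.26, with a mean of −0.29. In animals 19 and 20 alone 5 of 15 were below 0 and 10 above (median 0.05), while in the other pair of animals 12 were below 0 and 3 above (median −0.41). Without the 0 g array of animal 23, with no block, 7 were below 0 and 8 above (median 0.02). That array is the one with 16 of 16 pancreatic acinar markers. The part of the pancreatic transcripts in the differences of animal 23 was not tested.

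Known targets of AP-1 stood at 10 above and 10 below 0 of 20 measured (median −0.05), and 0 passed. FABP4, the fatty acid carrier, differed by −2.44 (SE 0.26, limma adjusted p = 0.604), lower in 4 of 4 animals. The list was chosen with earlier results of these data known, so the place of FABP4 in it carries no weight. SPP1, the secreted phosphoprotein osteopontin, differed by 1.34 (SE 0.46, adjusted p = 1.00), higher in 4 of 4 animals, from 0.05 in animal 20 and 0.62 in animal 19 to 2.08 in animal 24 and 2.61 in animal 23. The matrix protease MMP2 differed by −0.42 and the chemokine CXCL8 by 0.34.

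**Figure D4:**
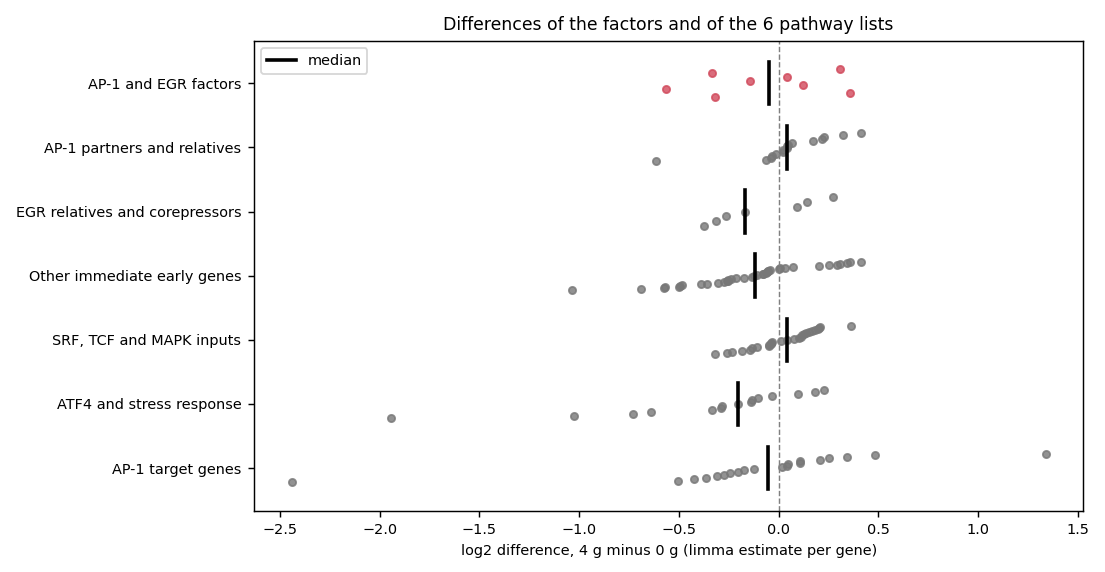
Log2 difference of 4 g minus 0 g (horizontal axis, limma estimate) of each measured gene, red for the 8 tested factors and grey for the 6 lists, with a black bar at the median. The medians run from −0.20 for the ATF4 and stress response to 0.04 for the AP-1 partners, and the farthest points are FABP4 (−2.44), FGF21 (−1.94) and SPP1 (1.34). The other immediate early genes take in SOCS3, which was measured mainly at 0 g.

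Cell type markers were set beside these values because fewer cells of a type and less RNA per cell cannot be told apart in bulk tissue. Stellate cell and fibroblast markers, cells in which AP-1 genes are also active, had summed signals of 28.2 to 49.3 at 4 g and 47.2 to 99.1 at 0 g, with 11 of 14 below 0 (median −0.43). Of these 14, 4 were lower at an unadjusted p under 0.05, against 0.746% of all probes. Endothelial markers lay below 0 in 13 of 13 cases (median −0.19). All 11 markers of Kupffer cells and macrophages were measured on each array, with summed signals of 97.8 to 124.9 at 4 g and 98.5 to 124.0 at 0 g and 8 of 11 below 0 (median −0.06). Medians of the other lists were 0.06 for hepatocytes (14 of 19 above 0), −0.03 for neutrophils (4 of 7 below 0), −0.19 for lymphocytes (8 of 13 below 0), −0.35 for cholangiocytes (5 of 6 below 0), −0.43 for rumen and squamous epithelium (6 of 7 below 0), −2.69 for pancreatic acinar cells (10 of 10 below 0) and −0.00 for red blood cells (3 of 5 below 0). For the pancreatic acinar markers the 0 g array of animal 23 stood apart, with a mean level of 6.8. The other 0 g arrays had −4.9 to −4.1 and the 4 g arrays −5.2 to −3.5. None of the markers passed at an adjusted p under 0.05 in limma, and their part in the values of the AP-1 and EGR genes was not tested.

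**Figure D5:**
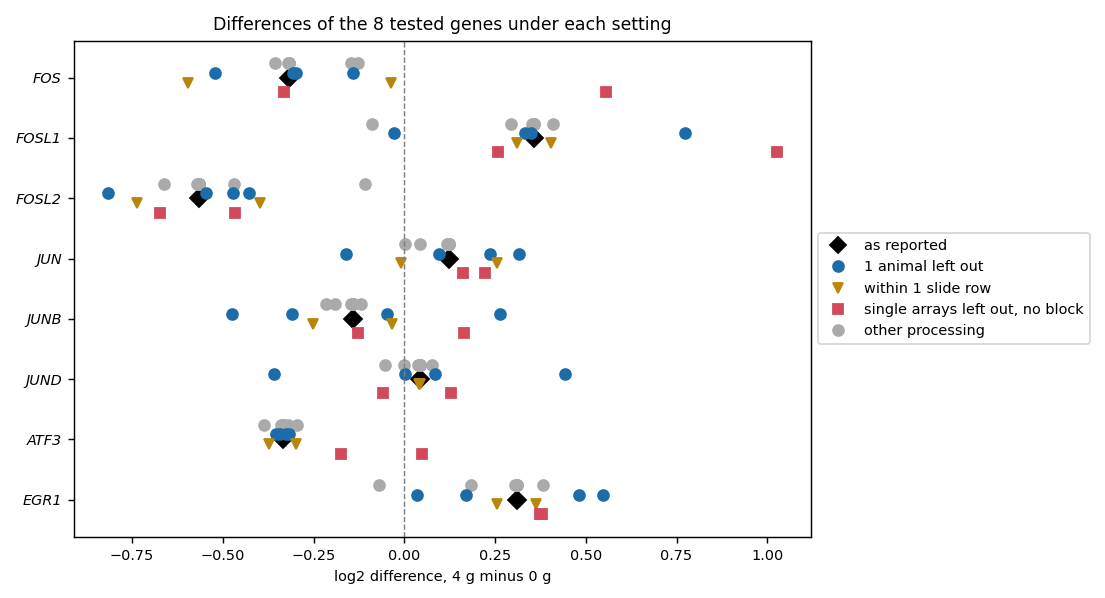
Log2 difference of 4 g minus 0 g (horizontal axis) of the 8 tested genes as reported and under each other way of processing or choosing the arrays. FOSL2 stays below 0 throughout, from −0.82 to −0.11, ATF3 stays below 0 except at 0.05 without the 2 dim arrays, and the values of JUN, JUNB and JUND lie on both sides of 0.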

How the data were processed

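Labelled RNA (Cy3, 1 colour) was measured on 8 Agilent arrays of 1 slide and 1 scan. Per the file headers, Feature Extraction 11.0.1.1 produced the spot intensity values (processed signal, background-subtracted and detrended, linear, not scaled between arrays); the submitters' processing notes name version 9.5. The deposited series table holds the authors' log2 values, whose columns correlated with the log2 processed signal at 1.00, with medians from −3.04 to −2.84. The scanner files also carry the deposited background, saturation and outlier flags.

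The 536 control features were left out, and so were 48 outlier spots. Log2 processed signal minus the array's 75th percentile was averaged per probe. Probes well above background on at least 4 arrays were tested (10985) with limma 3.58.1 in R 4.3.3, 2-sided, with the animal as a block, since the trial gave each animal every dose, and Benjamini-Hochberg adjustment over all tested probes at 0.05. The fit has 3 residual degrees of freedom. It was tested on simulated data with correct pairs and independent errors. Dim arrays and doubtful pairs were not simulated, so that test says nothing about them. Deviations from the group means correlated between arrays of 1 number at −0.19, −0.18, 0.21 and 0.13. The 2 highest values were off the numbers. They were 0.62 for the 2 dim arrays (4 g of animal 19 with 0 g of animal 20) and 0.55 for 4 g of animal 23 with 0 g of animal 24. The other pairs off the numbers ran from −0.60 to 0.23. The pairing thus rests on the labels. The number of arrays limits the precision. No spot was saturated (0 on each array). Slide rows held animals 19 and 20 (row 1) and 23 and 24 (row 2).

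Members were taken by the gene name in the files. List genes were also matched by accession to a RefSeq table of ARS-UCD2.0, used for names only (11194 probes by accession, 3085 by symbol, 729 with the file's name). The members and the lists were chosen with earlier results of these data known. Named were all members, up to 4 genes per pathway list by the smallest unadjusted p, and the 3 nearest genes of each member measured on all arrays, among genes with at least 0.5 times its SD. Per the labels the numbers mark 4 animals, with the doubt about 23 and 24 given in the results.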

Additional observations from a re-analysis of the deposited data

Results flagged for a closer look

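Among 30 sets of 4 values (levels of each gene per dose and differences per animal), 2 had 1 value far from the rest by Dixon's criterion, which chance gives in about 1 in 20 sets. JUND stood at 3.97 on the 0 g array of animal 20, against 2.42 to 2.57 on the other 0 g arrays. That array is 1 of the 2 dim ones, and the unscaled signal there was 1976 intensity units, against 1390 to 1661 on the other 0 g arrays. FOSB stood at −8.42 on the 4 g array of animal 23, against −6.53 to −6.34 on the other 4 g arrays. FOSB was not well above background on any of these 4 arrays, so the values have no order.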

How the results depend on the processing

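The members and groups were refitted under 16 other settings, 7 of them also for the differences between animals. No member passed the adjusted threshold in any of these fits. The count of probes that passed was 0 in 15 of the 16 settings, leave-one-out fits included (0 to 0), and 5 without the 2 dim arrays and with no block. These 5 were GIMAP6, LOC768255, ULBP3, GIMAP4 and IL20RA, named after their values were seen, and all are among the genes with 2 separate levels. The unadjusted count ranged from 16 (animals 19 and 20 alone) to 450 (animals 23 and 24 alone), and was 17 with normexp, 57 without animal 23, 340 without animal 20, 361 with array weights and 408 without animal 19. Of the probes with an unadjusted p under 0.05, 38 of 120 were higher as reported, 59 of 130 after quantile normalization and 152 of 361 with array weights. The count between animals was 0 in all 7 settings.

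Leaving out the 2 dim arrays with no block turned the sign of FOS (0.56), JUNB (0.16) and ATF3 (0.047), and then 7 of 8 members lay above 0 (median 0.19). Normexp turned FOSL1 (−0.088) and EGR1 (−0.070). Leaving out 1 animal gave ranges of −0.028 to 0.77 for FOSL1, −0.16 to 0.32 for JUN, −0.48 to 0.26 for JUNB and −0.36 to 0.44 for JUND. JUN was −0.010 in animals 23 and 24 alone. JUND was −0.0021 after quantile normalization, −0.053 with array weights and −0.058 without the 0 g array of animal 23 with no block. The cause of these turns was not tested, except that fewer arrays enter where arrays are left out. FOSL2 kept its sign in all 16 settings (−0.82 to −0.11), with a smallest adjusted p of 0.971 and a smallest unadjusted p of 0.0167. Without the replicate block the estimates were the same and 0 members passed, with an SE of 0.38 for FOSL2 and 0.61 for FOS. FOSB and EGR2, not tested, moved by less than the SD of their 4 differences, which was wide, at 2.23 for FOSB and 0.53 for EGR2. Within it FOSB turned from −0.41 to 0.54 without animal 23. It was also above 0 in animals 19 and 20 alone (0.34) and without the 0 g array of animal 23 (0.046). EGR2 turned from −0.18 to 0.077 in animals 19 and 20 alone. Faint spots limit FOS, FOSL1, FOSL2 and EGR1.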
